A study of Mus musculus with 6 samples.

Results

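The genes described here build and cross-link the elastic fibres of the lung. Their transcripts were followed in lungs of 6 wild type mice, of which 3 had received a high fat diet and 3 a control diet, with 1 Affymetrix array per mouse. The 10 genes considered were Eln, Fbn1, Fbln5, Lox, Loxl1, Loxl2, Ltbp4, Mfap4, Mfap5 and Emilin1, chosen as elastic fibre components and cross-linking enzymes. A probe set, the group of short probes that reports on 1 transcript, was taken when the platform annotation names only that gene. This gave 15 probe sets of 45101 on the array, and they covered 8 of the 10 genes. Both probe sets that name Loxl2 also name another gene, and so Loxl2 was not analysed here, nor was Fbn1. Of the 15 probe sets, 13 passed a filter on dim signals and were tested. The other two, 1 each of Fbln5 and Lox, had mean signals of 32.2 and 38.7 in high fat lungs and of 33 and 32.4 in control lungs, all below the filter level of 70.3.

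Elastic fibres let the lung stretch and recoil with each breath. Tropoelastin, the product of Eln, is laid onto a scaffold of fibrillin microfibrils and is then joined into an insoluble network when lysyl oxidases oxidise its lysines. Fibulins, latent TGF-beta binding proteins and emilins take part in placing tropoelastin on the scaffold and in linking it to the enzymes. Most elastin of the mouse lung is laid down while alveoli form, by smooth muscle cells, fibroblasts and other mesenchymal cells, and the protein then turns over very slowly.

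How old the mice were, their sex and strain, and how long they were fed the diets are not stated in the sources used here. A signal is the value that the authors' MAS5 processing gives to a probe set, on a linear scale with a common trimmed mean of 500 on every array. Median signals of all probe sets lay between 113.4 and 128.7 on the high fat arrays and between 143.3 and 150.3 on the control arrays. Tissue identity was checked with 9 markers of lung epithelium, among them Sftpc and Scgb1a1, whose summed signal was 263000 to 293000 in high fat lungs and 195000 to 310000 in control lungs. As a measure of RNA integrity, the signal of the Gapdh control probe set at the 3' end was divided by that at the 5' end, which gave 0.915 ± 0.0538 in high fat lungs and 0.768 ± 0.0259 in control lungs (SD, n = 3 each). For b-Actin the quotient was 1.52 ± 0.0219 in high fat lungs and 1.31 ± 0.122 in control lungs (SD, n = 3 each). Neither ratio overlapped between the diets (two-sided exact permutation p = 0.1 for each, the smallest that 3 against 3 arrays allow). The ratios of the 3' end to the middle of the transcript did overlap for both controls. For Gapdh they averaged 0.99 in high fat and 0.986 in control lungs, and for b-Actin 1.28 and 1.24. The part of RNA integrity in the results below was not tested.

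Of the elastic fibre genes, Eln and Loxl1 rose in high fat lungs. At the brightest probe set the call of Eln held in every alternative run and that of Loxl1 in some of them, and Lox, Ltbp4, Fbln5, Mfap4, Mfap5 and Emilin1 were not called. Differences are given as log2 of high fat over control, and a call is a limma p-value under 0.05 after Benjamini-Hochberg adjustment over all 27027 tested probe sets. Of the 13 tested probe sets, 4 were called higher, 0 were called lower and 9 were not called. Among all tested probe sets 12.9 percent were called, 4.63 percent higher and 8.27 percent lower. The 4 calls come from 2 genes. With each gene read at its brightest tested probe set, 2 of 8 genes were called higher and 0 lower, while of all 12692 genes 9.37 percent were called and 6.27 percent were called higher. The dimmer Loxl1 probe set passed the filter only through its high fat signals, and without it 3 of 12 were called. The median log2 difference was 0.32 over the 8 genes and 0.06 over all genes. Every high fat array lay above every control array for 3 of the 8 genes, Eln, Loxl1 and Ltbp4, and this held for 19.7 percent of all genes. Of the 13 probe sets it held for 5, against 14.6 percent of all tested probe sets. The dimmer Loxl1 probe set, which entered through its high fat signals, is 1 of these 5. The share of calls that were higher depends on the scaling of the arrays. It was 35.9 percent of 3486 calls with the deposited scaling and 80.1 percent of 5448 with arrays centred on their medians. Centring moved the median log2 difference of all probe sets to 0.22, against -0.06 as deposited. Relative to the median of all probe sets, a value that centring leaves the same by construction, Eln differed by 1.46 and Loxl1 by 0.53 at their brightest probe sets.

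**Figure D1:**
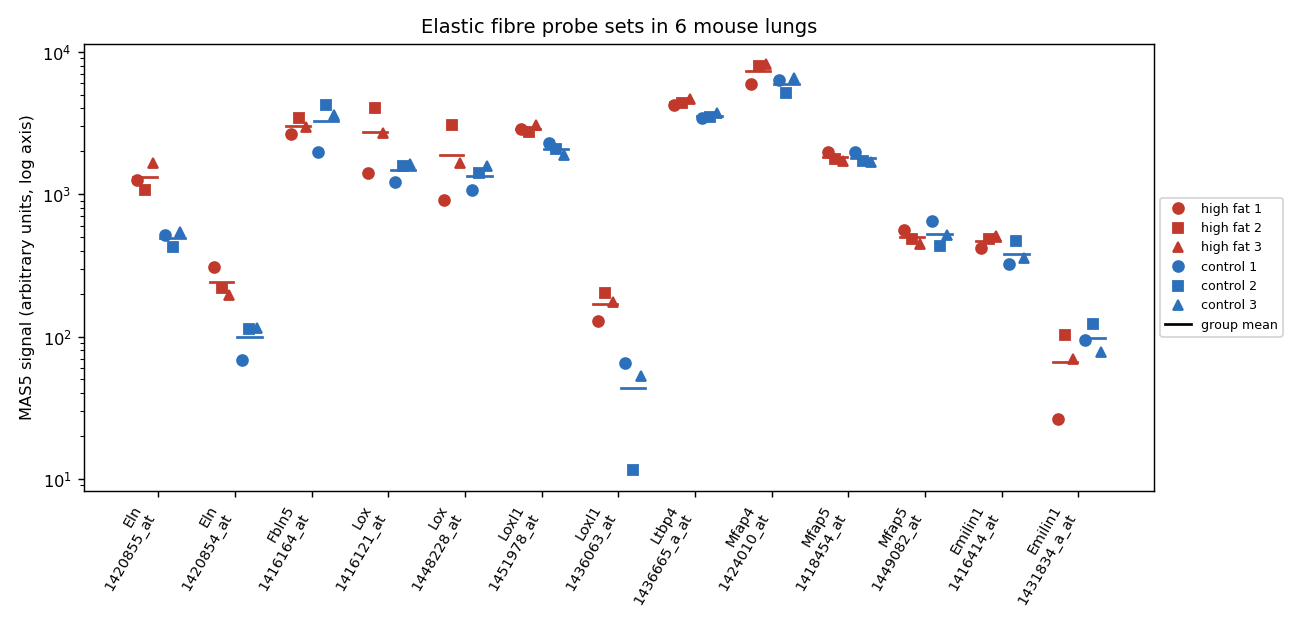
MAS5 signal (log axis) of the 13 tested elastic fibre probe sets in each lung, with high fat arrays in red to the left of control arrays in blue, marker shapes for the replicate number and a line for each group's mean. The groups are apart for both Eln and both Loxl1 probe sets and for Ltbp4, and overlap for the other 8.

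Eln encodes tropoelastin, the elastic core of the fibre. Its brighter probe set, 1420855_at, had signals of 1251, 1072 and 1653 in high fat lungs, against 520.8, 427.3 and 538.5 in control lungs. The lowest high fat lung was thus well above the highest control lung. Means were 1330 ± 298 in high fat lungs and 496 ± 59.7 in control lungs (SD, n = 3 each). The fold was 2.64, with a 95% interval of 1.99 to 3.52 (log2 difference 1.40, SE 0.18, limma adjusted p = 0.00525). The rise of the mean was 13.9 times the SD of the control lungs. This call held with any 1 of the 6 mice left out, where the log2 difference lay between 1.23 and 1.54 and the adjusted p reached at most 0.0283.

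The dimmer Eln probe set, 1420854_at, gave a change of similar size. It had signals of 309.5, 218.1 and 195.3 in high fat lungs, against 68.19, 113.7 and 114.9 in control lungs. The groups did not overlap here either, and the fold was 2.45 (95% interval 1.52 to 3.96, limma adjusted p = 0.0287). Both probe sets were designed from the same transcript sequence, so they are not independent evidence. They ordered the high fat lungs differently, with replicate 3 highest for the brighter and replicate 1 highest for the dimmer. The dimmer probe set stayed called in 1 of 6 fits with 1 mouse left out, that without high fat replicate 3, and its adjusted p reached 0.0818 without high fat replicate 1. In whole lung RNA, more cells of a type and more transcript per cell cannot be told apart.

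Loxl1 is a lysyl oxidase that acts mainly on elastin, and mice without it fail to keep up their elastic fibres. Its brighter probe set, 1451978_at, had signals of 2890, 2748 and 3043 in high fat lungs, against 2298, 2067 and 1890 in control lungs. The groups were apart, and replicates lay close together within each. Means were 2890 ± 148 in high fat lungs and 2090 ± 205 in control lungs (SD, n = 3 each). The fold of 1.39 (95% interval 1.16 to 1.67) was called (log2 difference 0.48, SE 0.12, limma adjusted p = 0.0318). With any 1 mouse left out the log2 difference was 0.41 to 0.55, and only the fit without control replicate 1 still called it. As the groups were apart, its sign could not turn in these fits. The highest adjusted p was 0.123, without control replicate 3.

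A dimmer Loxl1 probe set, 1436063_at, was also called, by an amount that is poorly fixed. Its signals were 129.6, 201 and 175.7 in high fat lungs, against 65.43, 11.52 and 53.09 in control lungs. All control signals lay below the filter level, so it entered the test through its high fat signals and adds no support to the direction at the brighter probe set. The fold of 4.85 had a 95% interval of 1.82 to 13, which rests on control values close to background (limma adjusted p = 0.0456). It was called in 1 of 6 fits with 1 mouse left out, and the log2 difference was 1.49 without control replicate 2, against 2.28 with all mice.

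Lox is the founding member of the same enzyme family, cross-links collagen as well as elastin, and is required for a normal aorta and lung in mice. Its brightest probe set, 1416121_at, had signals of 1410, 4054 and 2678 in high fat lungs, against 1224, 1582 and 1635 in control lungs. High fat replicates 2 and 3 were above all control lungs and replicate 1 was within their range. The mean was 2710 ± 1320 in high fat lungs and 1480 ± 223 in control lungs (SD, n = 3 each), and the difference was not called (1.69-fold, 95% interval 1.01 to 2.82, limma adjusted p = 0.152). The size of this difference depended on which mouse was left out. Without high fat replicate 1 the log2 difference was 1.17 with an adjusted p of 0.0171, and without high fat replicate 2 it was 0.40 with an adjusted p of 0.362.

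A further Lox probe set from the same transcript, 1448228_at, had 912.7, 3077 and 1652 in high fat lungs, against 1079, 1402 and 1579 in control lungs. The order of the high fat lungs was the same as at the brighter probe set, and the groups overlapped (1.25-fold, 95% interval 0.696 to 2.24, limma adjusted p = 0.599). Without high fat replicate 2 its log2 difference turned to -0.12. The ratio of this probe set to the brighter one was 0.617 to 0.759 in high fat lungs and 0.882 to 0.966 in control lungs, so the 2 probe sets did not change equally.

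**Figure D2:**
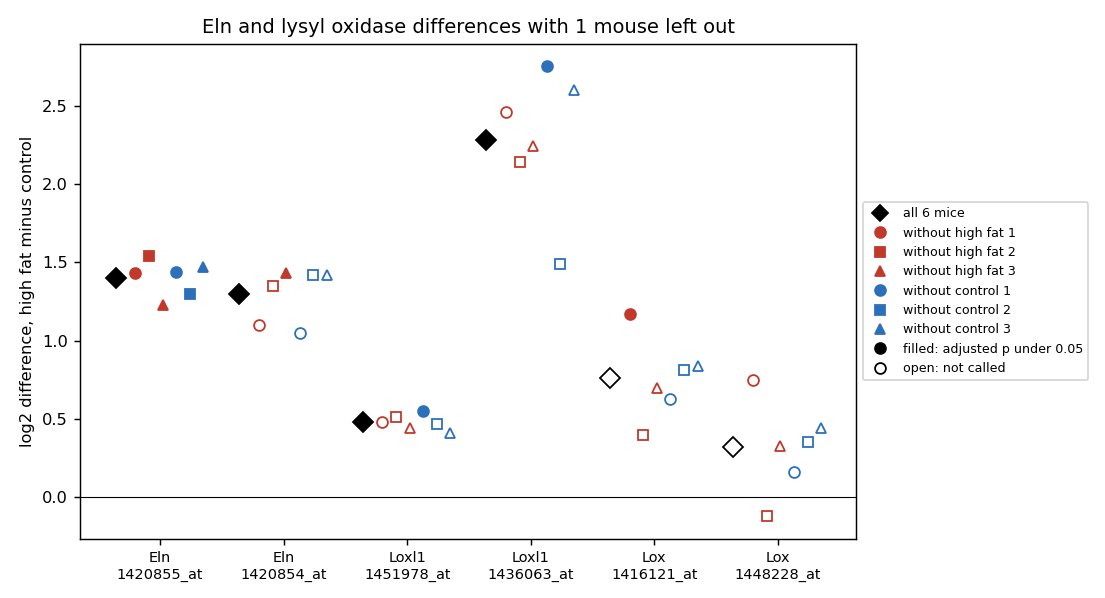
Log2 difference (high fat minus control) of 6 probe sets of Eln, Loxl1 and Lox with all mice (diamonds) and with each mouse left out, filled where the limma adjusted p was under 0.05. Eln 1420855_at stayed called in all 6 fits, between 1.23 and 1.54, while Lox 1416121_at ran from 0.40 to 1.17 and was called in 1.

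Ltbp4 encodes a latent TGF-beta binding protein that, with the fibulin encoded by Fbln5, places tropoelastin on microfibrils. Mouse lungs that lack it form defective elastic fibres. Its probe set 1436665_a_at had signals of 4206, 4396 and 4655 in high fat lungs, against 3417, 3501 and 3706 in control lungs. The groups did not overlap and both were tight, with means of 4420 ± 225 in high fat lungs and 3540 ± 149 in control lungs (SD, n = 3 each). The fold was 1.25 (95% interval 1.06 to 1.47) and missed the threshold (limma adjusted p = 0.0763). With arrays centred on their medians it was called (log2 difference 0.59, adjusted p = 0.0141).

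Fbln5, which binds both tropoelastin and lysyl oxidases and is needed for elastic fibres in mouse lung, skin and vessels, had no such separation. Its probe set 1416164_at had 2645, 3408 and 2944 in high fat lungs, against 1972, 4234 and 3584 in control lungs. The control lungs spanned the whole range of the high fat lungs. The fold was 0.961, with a 95% interval of 0.644 to 1.43 that leaves room for a change in either direction (limma adjusted p = 0.902).

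The RefSeq promoter table (build GRCm38.p6) held 4 of the 10 genes, Ltbp4 and Fbln5 among them. The 250 bases before the first listed start of each are shown for these partners in fibre assembly. The diets were apart for Ltbp4 and overlapped for Fbln5, but neither gene was called and the difference between the genes was not tested. Capitals mark the GC box GGGCGG, the core of Sp1 sites, on either strand (CCGCCC). The first is chr7:27337613-27337862 and the second chr12:101819120-101819369, both on the minus strand.
Ltbp4: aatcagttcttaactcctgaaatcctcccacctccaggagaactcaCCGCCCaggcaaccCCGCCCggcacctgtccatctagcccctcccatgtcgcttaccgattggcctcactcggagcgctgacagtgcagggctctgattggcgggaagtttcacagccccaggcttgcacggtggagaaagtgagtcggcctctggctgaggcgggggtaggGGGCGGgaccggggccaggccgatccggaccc
Fbln5: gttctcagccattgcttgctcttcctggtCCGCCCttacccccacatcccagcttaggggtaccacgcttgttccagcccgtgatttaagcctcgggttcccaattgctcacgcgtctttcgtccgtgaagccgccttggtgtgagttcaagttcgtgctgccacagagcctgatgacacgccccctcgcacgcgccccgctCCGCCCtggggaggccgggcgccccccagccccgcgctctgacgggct
The Ltbp4 window held 3 GC boxes and the Fbln5 window 2, with 64.4 and 65.2 percent G or C. Neither held TATAAA on either strand. Among 32851 promoters of the table, 32.7 percent held a GC box and 12.4 percent TATAAA in the same window. GC boxes thus stood before the first listed start of both genes. A further listed Fbln5 start had 0 in this window, and further Ltbp4 starts, whose windows overlap each other, had 5 and 7.

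Mfap4 and Mfap5 encode glycoproteins of the microfibril surface. Mfap4 binds tropoelastin and fibrillin, and its probe set 1424010_at had 5982, 7964 and 8177 in high fat lungs, against 6324, 5103 and 6529 in control lungs. High fat replicates 2 and 3 were above all control lungs, and replicate 1 was not. The fold was 1.23 (95% interval 0.958 to 1.57, limma adjusted p = 0.238), and only centring on array medians gave a call (adjusted p = 0.048).

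Mfap5 had nearly equal signals on both diets. The brighter probe set, 1418454_at, had 1976, 1773 and 1720 in high fat lungs, against 1979, 1717 and 1679 in control lungs. The fold was 1.02, with a 95% interval of 0.845 to 1.23 (limma adjusted p = 0.905). The intervals of both Eln probe sets began above this range, at 1.99 and 1.52, though the difference between the genes was not tested. The dimmer probe set, 1449082_at, had a mean of 499 ± 59 in high fat lungs and of 530 ± 109 in control lungs (SD, n = 3 each), with a fold of 0.951 (limma adjusted p = 0.824).

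Emilin1 encodes a glycoprotein found where elastin meets the microfibrils, and in mice it restrains TGF-beta processing. Its brighter probe set, 1416414_at, had 419.9, 486 and 504.9 in high fat lungs, against 321.9, 466.6 and 357.5 in control lungs. Control replicate 2 lay among the high fat lungs, and the difference was not called (1.24-fold, 95% interval 0.93 to 1.66, limma adjusted p = 0.28). The dimmer probe set, 1431834_a_at, ran the other way, with 26.26, 102.5 and 69.12 in high fat lungs, against 94.94, 122.7 and 77.96 in control lungs. High fat replicates 1 and 3 lay below the filter level, and the difference was not called (0.59-fold, limma adjusted p = 0.346).

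**Figure D3:**
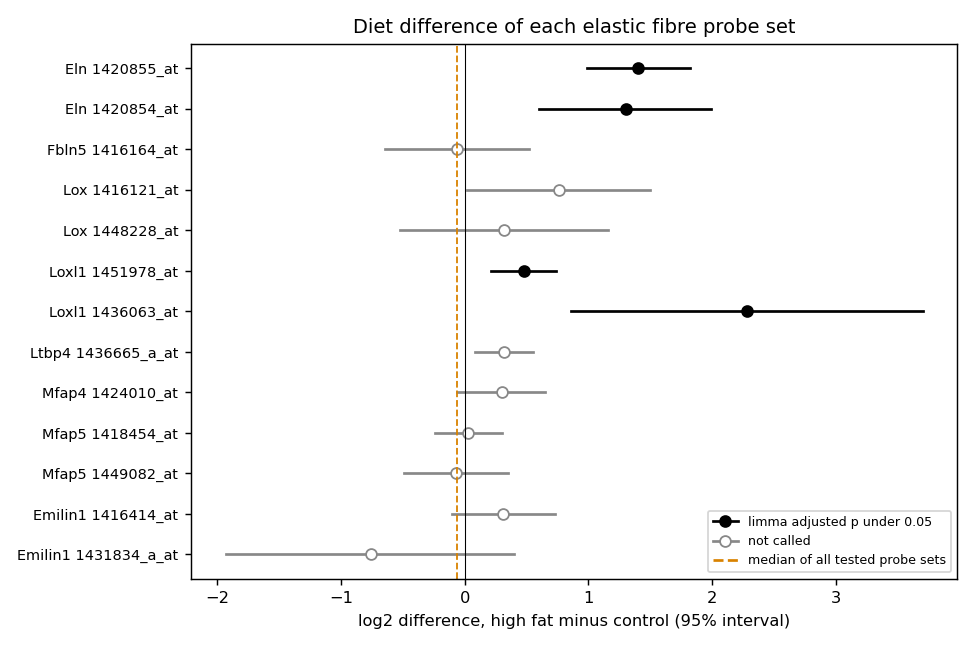
Log2 difference (high fat minus control) with its 95% interval for the 13 tested elastic fibre probe sets, filled black where called, and a dashed line at the median of all tested probe sets (-0.06). The Eln intervals begin at 0.99 and 0.60, and those of Mfap5 and Fbln5 span 0.

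Lists of other genes that surround the elastic fibre were read at each gene's brightest tested probe set, where 9.37 percent of all genes were called. Of 14 tested genes for other elastic fibre and microfibril components, 2 were called higher, 1 was called lower and 11 were not called, with a median log2 difference of 0.32, against 0.06 over all genes. The number of called genes was 6 with arrays centred on their medians and 0 with eBayes without trend. Emilin2, a relative of Emilin1, had 951.9, 1033 and 998 in high fat lungs, against 605.1, 488.7 and 741 in control lungs (1.65-fold, limma adjusted p = 0.0268). Ltbp1, which holds latent TGF-beta in the matrix, had 988.1, 1479 and 1219 in high fat lungs, against 712, 783.9 and 849.2 in control lungs (1.55-fold, limma adjusted p = 0.0384). Mmrn2, an endothelial member of the emilin family, fell to 1541, 1751 and 1755 in high fat lungs, against 2135, 2359 and 2688 in control lungs (0.705-fold, limma adjusted p = 0.0339). The 3 other tested probe sets of Mmrn2 were not called (log2 differences of -0.01, -0.07 and 0.19), and its call was lost with arrays centred on their medians (log2 difference -0.23, adjusted p = 0.269). Ltbp3, a further latent TGF-beta binding protein, was not called at its brightest probe set (1.29-fold, limma adjusted p = 0.189) but was called higher at 1 dimmer probe set (log2 difference 0.42, limma adjusted p = 0.0485). Of the endothelial markers beside Mmrn2, 2 of 7 were called lower, and their summed signal was 25700 to 31000 in high fat lungs and 29200 to 35800 in control lungs. The part of the endothelial share in the Mmrn2 result was not tested.

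Of 5 tested genes for other lysyl oxidases, their activation and their copper supply, 1 was called higher and 0 lower, beside 6.27 percent of all genes called higher. The number called was 2 with arrays centred on their medians and 0 with eBayes without trend. The called gene was Bmp1, the procollagen C-proteinase that also activates the Lox precursor, with 821, 869.1 and 739.9 in high fat lungs, against 464.8, 558.2 and 595.4 in control lungs (1.51-fold, limma adjusted p = 0.0345). The other tested probe set of Bmp1 was not called (log2 difference 0.57, limma adjusted p = 0.303). The copper transporter Atp7a, which supplies lysyl oxidases, had a fold of 0.988 and Loxl3 one of 0.94, and neither was called (limma adjusted p = 0.942 and 0.85).

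Of 9 tested elastin-degrading proteases, 1 was called higher and 0 lower, with a median log2 difference of -0.22. That share is close to the 9.37 percent of all genes, and the number called was 3 with quantile normalization and 2 with arrays centred on their medians. The called gene was Mmp14, a membrane-bound collagenase and activator of the Mmp2 precursor, with 1217, 1336 and 1063 in high fat lungs, against 768.6, 814 and 721.1 in control lungs (1.56-fold, limma adjusted p = 0.019). The other tested probe sets of Mmp14 were not called (log2 differences of 0.32 and 0.54, limma adjusted p = 0.338 and 0.115). The macrophage elastase Mmp12 had 107.4, 168 and 173.9 in high fat lungs, against 190.1, 277.8 and 127.7 in control lungs, and was not called (limma adjusted p = 0.491). Cathepsin S, another elastase of macrophages, lay below all control lungs in every high fat lung without being called (Ctss, 0.621-fold, limma adjusted p = 0.071). Such a separation held for 1530 of all 12692 genes. Cathepsin L was also lower in every high fat lung without a call (Ctsl, 0.823-fold, limma adjusted p = 0.197). Cathepsin B went the other way, higher in every high fat lung and not called (Ctsb, 1.25-fold, limma adjusted p = 0.0767). That opposite separation held for 2500 of all genes. Neutrophil elastase, Elane, did not pass the filter.

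Of 7 protease inhibitors, Timp4 and Timp2 were called higher and 0 were called lower at the brightest probe set, beside 6.27 percent of all genes called higher. The number called was 1 with quantile normalization and 1 with eBayes without trend. Timp4 had 643.5, 620.7 and 206.2 in high fat lungs, against 113.1, 102.8 and 142.1 in control lungs (3.68-fold, limma adjusted p = 0.0238), and its other tested probe set was not called (log2 difference 0.07). Timp4 is known for its expression in heart and adipose tissue. Adipocyte markers, with 5 of 5 tested called higher, and cardiac markers, with 2 of 9, are given below, and their part in the Timp4 result was not tested. Timp2 was called at its brightest probe set (1.48-fold, limma adjusted p = 0.0296), while its 4 other tested probe sets were at 0.54, 0.30, -0.09 and -0.45 on the log2 scale, the first and the last of these called. Timp3, an inhibitor held in the matrix, was level at its brightest probe set (log2 difference 0, limma adjusted p = 0.996). Of its 3 dimmer tested probe sets, 2 were called lower (log2 differences of -1.02 and -0.58, limma adjusted p = 0.00571 and 0.0453) and the other was not called (log2 difference -0.31).

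None of 11 elastin receptor subunits and binding integrins was called by limma at its brightest probe set, and 3 had an unadjusted p under 0.05. With arrays centred on their medians 3 were called, and with quantile normalization 2. The integrin chains Itga8 and Itgb6, at 0.09 and -0.02 at their brightest probe sets on the log2 scale, were each called lower at the dimmer one. These differences were -0.96 for Itga8 (limma adjusted p = 0.0134) and -1.32 for Itgb6 (limma adjusted p = 0.0139). The genes with the smallest p at the brightest probe set were the galectin Lgals3, which binds elastin fragments (0.745-fold, limma adjusted p = 0.0925), and the integrin chain Itgb1 (0.798-fold, limma adjusted p = 0.117). Of 7 TGF-beta ligands, receptors and their mediator, Tgfb3 (1.59-fold, limma adjusted p = 0.0239) and Smad3 (1.34-fold, limma adjusted p = 0.0375) were called higher. Among all genes 6.27 percent were called higher. In this list the number called was 1 with quantile normalization and 1 with eBayes without trend. The other tested probe set of Smad3 ran the other way without being called (log2 difference -0.71). When each mouse was omitted in turn, none of the 9 genes called at their brightest probe set in these lists kept its call throughout, and each kept it in at most 2 of 6 fits.

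**Figure D4:**
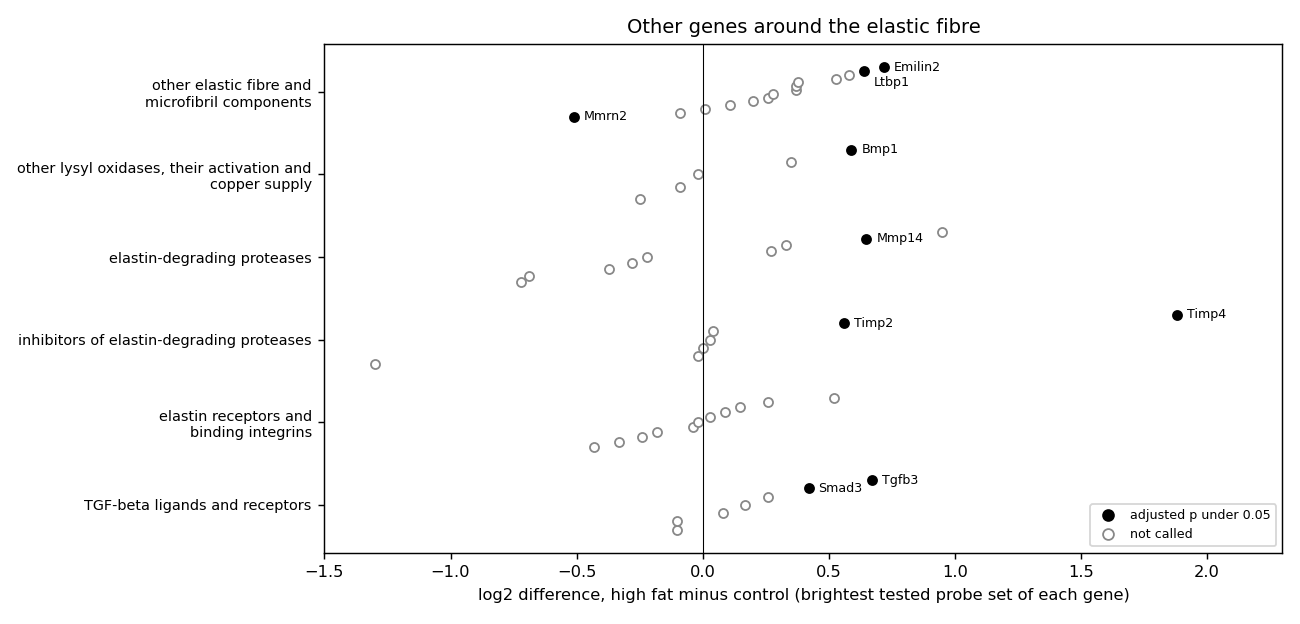
Log2 difference (high fat minus control) of each gene's brightest tested probe set in 6 lists around the elastic fibre, 1 point per gene, with called genes filled and named. Of the 9 called genes, 8 lie above 0 and Mmrn2 lies at -0.51.

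Marker transcripts of cell types that make or adjoin elastic fibres were read in the same way. Of 9 smooth muscle markers, 5 were called higher and 0 lower, beside 6.27 percent of all genes called higher. Their summed signal was 37600 to 67000 in high fat lungs and 26800 to 30700 in control lungs. Across high fat lungs it was highest in replicate 1 (66990), as Eln was at 1420854_at, while Eln at 1420855_at was highest in replicate 3. Log2 differences of the 9 markers ran from 0.34 for the myosin kinase Mylk to 1.55 for calponin, Cnn1, with 0.76 for the contractile actin Acta2. The 1.40 of Eln lay below Cnn1 and above the other 8, and these differences between genes were not tested. Of 9 lung fibroblast markers, 1 was called higher, Col1a1, the collagen I alpha chain (1.76-fold, limma adjusted p = 0.0199), a share close to that of all genes, and their sum overlapped, at 90100 to 106000 in high fat lungs and 82000 to 94300 in control lungs. Every high fat lung lay above every control lung for the collagen chains Col1a2 and Col3a1 and the proteoglycan Dcn too, without a call (limma adjusted p = 0.0615, 0.0663 and 0.0807). Such a separation held for 19.7 percent of all genes. At their brightest probe sets the other fibroblast markers, Pdgfra and Tcf21 among them, overlapped between the diets and were not called (limma adjusted p = 0.403 and 0.854 for that pair). Pdgfra was called lower at 1 dimmer probe set (log2 difference -0.72) and was not called at another (0.42). The dimmer tested probe set of Tcf21 was not called (log2 difference -0.95).

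Of 6 mesothelial markers, 4 were called higher, with sums of 11300 to 19600 in high fat lungs and 5890 to 8340 in control lungs. The mesothelial sum (19620), the lung fibroblast sum (105800) and both tested Lox probe sets had their highest high fat value in replicate 2. Of the fibroblast markers, Pdgfra, Tcf21, Col3a1 and Npnt were also highest there. Col1a1, Col1a2, Inmt and the mesothelial Prg4 were highest in high fat replicate 3, and Dcn and Lum in high fat replicate 1. Of 8 adipocyte markers, 5 were tested and all 5 were called higher, with sums of 22200 to 31300 in high fat lungs and 2410 to 5620 in control lungs. Of 9 cardiac muscle markers, 2 were called higher, with sums of 43400 to 157000 in high fat lungs and 20100 to 45200 in control lungs, highest in high fat replicate 1. Skeletal muscle markers varied within both groups, with sums of 1190 to 16500 in high fat lungs and 558 to 51000 in control lungs, highest in replicate 1 of each. None of 8 cartilage markers, which would mark large airway wall, passed the filter, and their highest signal was 166. The part of these tissues in the Eln, Loxl1 and Lox results was not tested. Replicate 1 of each diet had the highest skeletal muscle sum of its group, while the cardiac sum was highest in replicate 3 among control lungs (45160). Without replicate 1 of both groups, the Eln log2 difference at 1420855_at was 1.47 (adjusted p = 0.0239). Loxl1 1451978_at was then at 0.55 (adjusted p = 0.0682) and Lox 1416121_at at 1.03 (adjusted p = 0.0348), in a fit chosen after the data were seen.

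**Figure D5:**
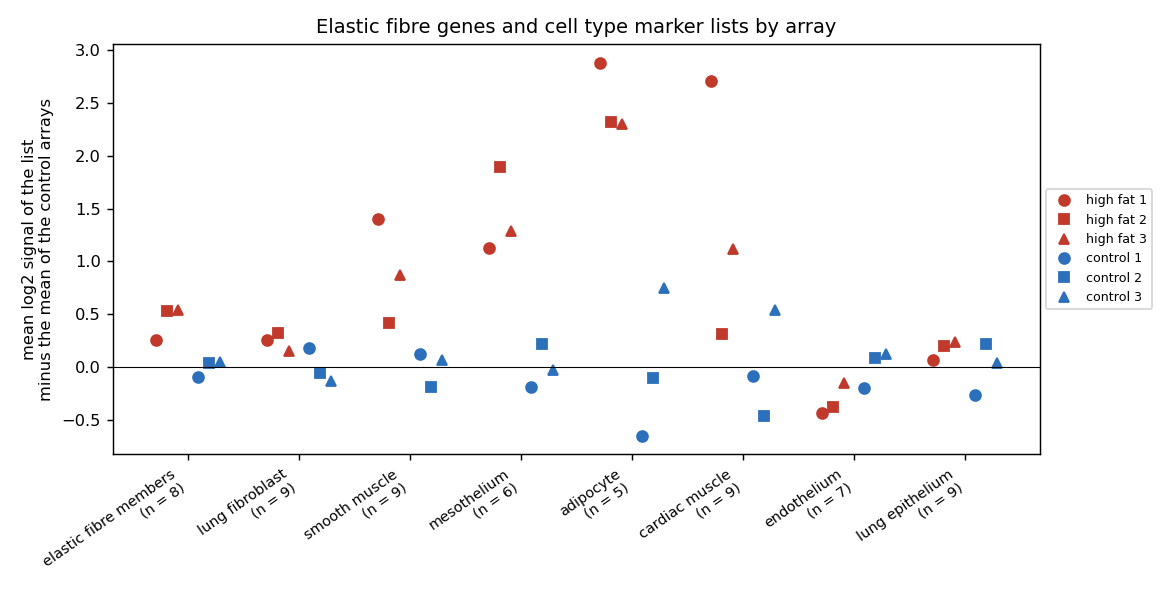
Mean log2 signal of each list on each array minus the mean of the control arrays, for the 8 elastic fibre genes and 7 lists of cell type markers, with high fat in red to the left of control in blue. Elastic fibre scores were 0.26, 0.53 and 0.54 in high fat lungs and -0.09, 0.04 and 0.05 in control lungs, and the smooth muscle, mesothelial and adipocyte scores of the high fat lungs also lie above those of the control lungs.

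The genes with profiles most like that of Eln were sought among 12213 other genes, by the root mean square difference between log2 signals over the 6 arrays after each was centred on its own mean. The 5 nearest were Efhd1 (0.127), Homer2 (0.154), Sephs2 (0.157), Pnpla3 (0.183) and Vsig4 (0.19). Control signals of Efhd1 (43.2, 36.36 and 51.98) all lay below the filter level of 70.3. Those of Vsig4 were 67.03, 54.99 and 73.69, with a mean log2 below the filter. Both genes became candidates through their high fat signals, so their likeness to Eln is partly built in. Sephs2, for example, had 1401, 1324 and 1653 in high fat lungs, against 726.8, 558.8 and 620 in control lungs, which follows Eln in its highest and lowest high fat lung. With 6 arrays and so many genes, near matches of this size are a description only.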

How the data were processed

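The deposited values are MAS5 signal intensity values on a linear scale, made by the authors with MAS5 per the submitters' processing notes; no version or settings are given in the sources used here. MAS5 subtracts mismatch signal, which makes dim values noisy, and its common scaling removes differences in total signal. Signals were floored at 1 before log2. A probe set entered the test when its mean log2 signal was at or above the 40th percentile (6.14), which left 27027, without 64 Affymetrix controls. The test was limma's (version 3.58.1, R 4.3.3), lmFit with diet as the only term and eBayes with a trend on intensity (two-sided), with 4 residual degrees of freedom. It was tested on simulated data. Means and SDs are of linear signals, and folds are 2 to the power of the log2 difference. Levels of different genes were not compared. The number of arrays, 3 per diet, limits the precision. The titles' sample numbers lie in separate ranges for the diets, so a batch that follows them and diet cannot be told apart.

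Gene names came from the platform annotation. The members and lists were chosen with earlier results of these data known. Named genes are all members, the called genes of each list and otherwise those with the smallest p, and the 5 nearest Eln. Others were picked for their roles or after their values were seen. These were Mmp12, Elane, Ctss, Ctsb, Ctsl, Atp7a, Loxl3, Ltbp3, Timp3, Itga8, Itgb6 and the marker genes named. Alternatives were other scalings, offsets, filters, variance models, weights, the replicate number as a block, adjustment over 1 probe set per gene, the mean of a gene's probe sets, and leaving out mice.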

Additional observations from a re-analysis of the deposited data

How the results depend on the processing

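Of 13 elastic fibre probe sets, 4 were called, and 3486 of all probe sets. With arrays centred on their medians these counts were 7 and 5448, and 5 genes were called in place of 2, since Ltbp4, Mfap4 and Emilin1 joined Eln and Loxl1. The count was 2 with a filter at the 60th percentile, which removed 3 of the 13, 2 with eBayes without trend (1 gene) and 2 with 1 probe set per gene (857 calls in all). Without replicate 1 of both groups, chosen after the data were seen, it was 2 of 1274 calls in all. With 1 mouse left out it was 1 to 3, for 1 to 2 genes, and all calls numbered 721 to 3304, lowest without control replicate 3. The labels do not say whether the replicate numbers pair the mice. Deviations of same-numbered arrays correlated at 0.166, 0.107 and -0.042, and not every array correlated best with its own number. With 3 arrays per diet these values cannot settle whether the mice were paired. The replicate block gave 2 member calls, with Eln at 1.40 (adjusted p = 0.00832). Eln 1420855_at stayed called in all 17 alternatives and Loxl1 1451978_at in 10 of 17. Signs that turned were all of uncalled probe sets. Fbln5 was at 0.22 with median centring and at -0.38 to 0.17 with 1 mouse left out. Mfap5 1418454_at was at -0.01 with quantile normalization and at -0.03 to 0.1 with 1 mouse left out, and Mfap5 1449082_at at 0.2 with median centring and at -0.21 to 0.08. Lox 1448228_at was at -0.12 to 0.75 with 1 mouse left out. Of all log2 differences of members and called list genes recomputed, 10 turned sign, 90 lost a call and 5 gained one. These causes were not tested. Signals near background limit Loxl1 1436063_at and Emilin1 1431834_a_at.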
